A study of Rattus norvegicus with 12 samples.

Results

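Hpgd, Alpk1 and Kremen2 were 3 genes of the 30562 in the count tables, chosen by their counts in these libraries: they had no count in the CTL libraries and were clearly present in the CTK-2 libraries. Because the CTL and CTK-2 libraries selected them, their values there are a description. The genes were tested only in CTK2+GAL versus GAL, which compares the 6 libraries that the choice did not use. The main model also took its spread from the CTL and CTK-2 libraries, so its p-values are not independent of the choice. With only the compared groups in the edgeR model, the adjusted p was 2.6e-09 for Hpgd, 8.6e-08 for Alpk1 and 2.2e-07 for Kremen2.

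The RNA came from 12 libraries of primary oligodendrocyte precursor cells (OPCs), 3 for each of 4 groups. The cells were shaken off mixed glial cultures of newborn wild-type Sprague-Dawley rat cortex, with pups of both sexes used. CTL is labelled as untreated, and GAL received 10 nM galinex, which activates the receptor GPR17. CTK-2 received IFN-γ, TNF-α and IL-1β, each at 2 ng/mL, and CTK2+GAL received these cytokines and, 6 h later, 10 nM galinex, for which the protocol gives DMSO as the vehicle. Treatment began in all groups when the cells were moved to differentiating conditions, and RNA was collected 24 h after galinex.

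Hpgd encodes 15-hydroxyprostaglandin dehydrogenase, the enzyme that oxidizes prostaglandins such as prostaglandin E2 and so begins their inactivation. Alpk1 encodes alpha-kinase 1, a cytosolic sensor of bacterial ADP-heptose that phosphorylates the adaptor TIFA, which then assembles TRAF6 and leads to NF-κB activation. Kremen2 encodes a membrane receptor for Dickkopf proteins, with which it removes the Wnt co-receptors LRP5 and LRP6 from the cell surface and dampens Wnt signalling, a pathway that regulates the maturation of oligodendrocytes.

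Sequencing depth per library was 5207182 to 6169733 counts in CTL (median 5836987), 2600797 to 6064182 in GAL (median 5908813), 4718825 to 5475929 in CTK-2 (median 5329374) and 5080780 to 8978185 in CTK2+GAL (median 5562951). CTL replicate 3 and GAL replicate 3 stood apart from the other libraries without cytokines. The summed level of 20 interferon-stimulated genes, given as CPM (counts divided by the TMM-normalized library size and scaled), was 92.0, 105 and 1366 in CTL and 90.0, 108 and 1325 in GAL. It was 8484, 9192 and 8732 in CTK-2 and 8604, 9260 and 9414 in CTK2+GAL, so replicate 3 of both groups without cytokines lay between the other libraries without cytokines and those with them. Values without these 2 libraries, an alternative chosen after seeing the data, are given where they differ most.

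Hpgd lies on chromosome 16 from 33986266 to 34024228, on the minus strand of mRatBN7.2, and its counts cover 1680 bases of exon in 7 blocks. Its counts were 0 in each CTL library and 0 in each GAL library, CTL and GAL replicate 3 included. They were 124, 133 and 114 in CTK-2 and 102, 107 and 194 in CTK2+GAL. Every library with cytokines thus held at least 102 counts, and no library without cytokines held any. The level was 23.7 ± 2.43 CPM in CTK-2 (SD, n = 3) and 20.1 ± 1.27 CPM in CTK2+GAL (SD, n = 3). The levels of these groups overlapped, with 25.9, 24.2 and 21.1 CPM in the CTK-2 libraries and 19.8, 18.99 and 21.5 CPM in the CTK2+GAL libraries. Against a floor of 3 counts over the 3 libraries of the lower group, Hpgd was at least 96.3-fold higher in CTK2+GAL than in GAL, in 3 of 3 libraries (adjusted p = 9.1e-10, edgeR quasi-likelihood test with Benjamini-Hochberg adjustment). On the same floor the described difference of CTK-2 from CTL was at least 135-fold. Floors cover counting error only, and in bulk RNA more cells that carry a transcript and more transcript in each cell cannot be told apart.

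Alpk1, ENSRNOG00000022636, lies on chromosome 2 from 216128825 to 216247157 on the minus strand, with 6552 bases of exon in 14 blocks. Its counts were 0 in each CTL library and 0, 1 and 6 in the GAL libraries. They were 46, 60 and 76 in CTK-2 and 68, 67 and 125 in CTK2+GAL. Alpk1 was the member with counts in a group without cytokines, and 6 of its 7 GAL counts came from GAL replicate 3, which stood apart. The level was 0.3996 ± 0.553 CPM in GAL (SD, n = 3), 11.5 ± 2.30 CPM in CTK-2 (SD, n = 3) and 13.0 ± 0.997 CPM in CTK2+GAL (SD, n = 3). The CTK-2 libraries, at 9.62, 10.9 and 14.1 CPM, enclosed the CTK2+GAL libraries, at 13.2, 11.9 and 13.8 CPM. The log2 fold change of CTK2+GAL over GAL was 4.69 (SE 0.40, adjusted p = 8e-08, edgeR), higher in 3 of 3 libraries. Without GAL replicate 3 the fitted log2 fold change was 6.55, and with a single count then in GAL it depends on the count that the model adds. In CTK-2 the level was at least 65.4-fold that of CTL, as a description.

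Kremen2 lies on chromosome 10 from 12763397 to 12767854 on the minus strand, with 1936 bases of exon in 10 blocks. Its counts were 0 in each CTL and each GAL library. They were 49, 58 and 51 in CTK-2 and 51, 53 and 69 in CTK2+GAL. As for Hpgd, libraries with and without cytokines did not overlap. The level was 10.1 ± 0.564 CPM in CTK-2 (SD, n = 3) and 8.99 ± 1.19 CPM in CTK2+GAL (SD, n = 3), with single libraries at 10.2, 10.5 and 9.45 CPM and at 9.91, 9.41 and 7.64 CPM. Kremen2 was at least 43.0-fold higher in CTK2+GAL than in GAL, in 3 of 3 libraries (adjusted p = 5.4e-08, edgeR). The described difference of CTK-2 from CTL was at least 57.2-fold.

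**Figure D1:**
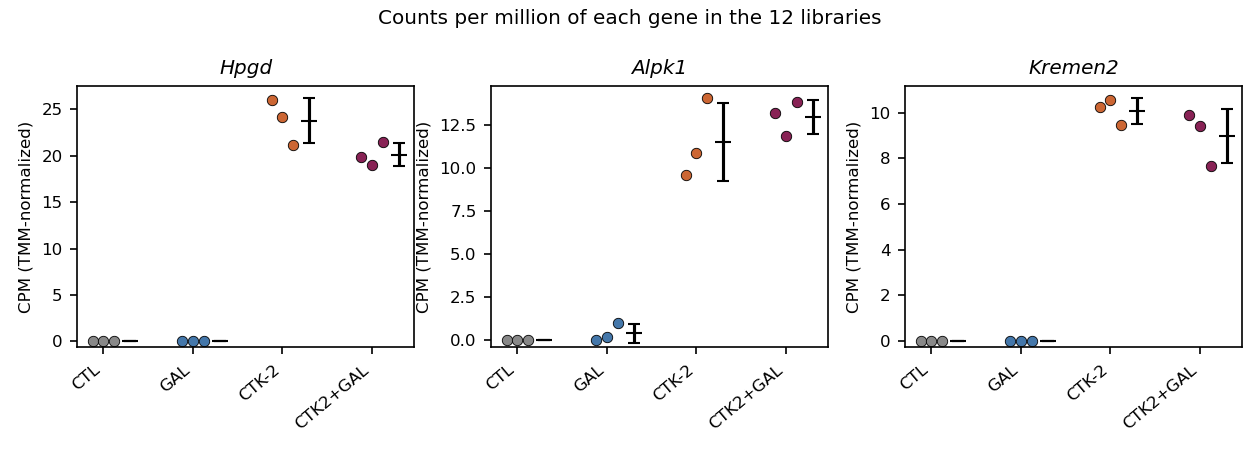
Each point is the TMM-normalized CPM of Hpgd, Alpk1 or Kremen2 in 1 library, for the 4 groups on the horizontal axis, and the bar beside the points is the mean with its SD (n = 3). All 6 libraries with cytokines lie above all 6 without in each panel, and the points above 0 without cytokines are those of Alpk1 in GAL.

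All 3 genes passed both thresholds in CTK2+GAL versus GAL, which were 0.05 for the adjusted p and 0.59 for the size of the log2 fold change. Of the 13348 tested genes, those with a mean count of at least 5, 17.4% passed them in that comparison, 11.7% as higher and 5.74% as lower in CTK2+GAL. Each CTK2+GAL library lay above each GAL library for 25.5% of tested genes. The filter did not depend on the tested libraries, since the CTK-2 counts alone would give a mean of 30.9 for Hpgd, 15.2 for Alpk1 and 13.2 for Kremen2. In CTK-2 versus CTL, the comparison that chose the genes, 17.3% of tested genes passed, 11.5% as higher and 5.79% as lower.

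No tested gene was called for galinex. In CTK2+GAL versus CTK-2, 0% of the 13348 genes passed in edgeR, with 545 at an unadjusted p under 0.05, and DESeq2 called 0, with 241. In GAL versus CTL, 0% passed in edgeR, with 574 at an unadjusted p under 0.05, and DESeq2 called 0, with 260. Without replicate 3 of CTL and of GAL, edgeR called 4 genes in GAL versus CTL. The change of the cytokine response with galinex, tested as an interaction, passed for 0% of genes in edgeR, with 376 at an unadjusted p under 0.05 and 123 in DESeq2, which called 0. It passed for 6 genes without those 2 libraries.

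Levels between genes are compared as CPM per kb of exon. In CTK-2 these were 14.1 ± 1.45 for Hpgd, 5.21 ± 0.292 for Kremen2 and 1.76 ± 0.350 for Alpk1 (SD, n = 3). In CTK2+GAL they were 11.97 ± 0.757, 4.64 ± 0.616 and 1.98 ± 0.152 (SD, n = 3). The order Hpgd, Kremen2, Alpk1 held in each of the 6 libraries with cytokines. Among tested genes, the CTK-2 level per kb of Hpgd lay at percentile 62.0, that of Kremen2 at 34.4 and that of Alpk1 at 15.7. The Hpgd level per kb was 2.30 to 3.24 times that of Kremen2 (median 2.61) and 5.85 to 10.5 times that of Alpk1 (median 6.14).

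The same pattern of counts was looked for in all genes. Of 12132 genes with 0 counts in each CTL library, 1461 had a count in a CTK-2 library, and 19 had at least 10 counts in each CTK-2 library. These 19 included the 3 members, and 14 carried a symbol. Those reported by name were the chemokines Ccl5, Ccl7 and Cxcl11, the apolipoprotein L genes Apol3 and Apol11a, the MHC class II gene RT1-Bb, the antiviral enzyme Oas2, the urea cycle enzyme Ass1, the anion exchanger Slc4a1 and the homeobox gene Dlx3. Counts of Apol3, Apol11a and RT1-Bb are uncertain, because near-identical family members can lose reads. By mean CPM in CTK-2, Hpgd ranked 3, Alpk1 8 and Kremen2 9 among the 19, and by CPM per kb 5, 16 and 9. The highest by mean CPM was a gene without a symbol, ENSRNOG00000000767 on chromosome 20, with 461, 671 and 494 counts in CTK-2 and 508, 623 and 1074 in CTK2+GAL.

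**Figure D2:**
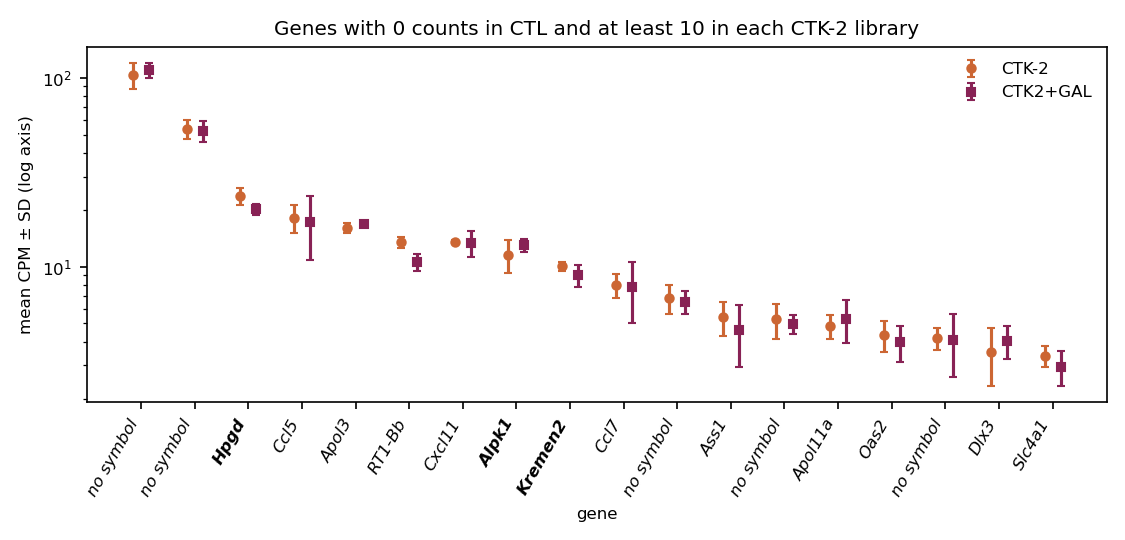
Mean CPM with its SD (n = 3, logarithmic axis) in CTK-2 and CTK2+GAL for 18 of the 19 genes with 0 counts in CTL and at least 10 counts in each CTK-2 library, ordered by their CTK-2 level. Hpgd, Alpk1 and Kremen2 are in bold, and the ratio of CTK2+GAL to CTK-2 lies between 0.784 and 1.14 for the 19 genes.

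The GAL libraries, which the choice did not use, held 0 counts of these 19 genes in replicate 1, 1 count in replicate 2 and 14 in replicate 3. The latter came from 7 genes, among which Alpk1 gave the most. The other 12 genes, Hpgd and Kremen2 among them, had 0 counts in the 3 GAL libraries. Every one of the 19 passed both thresholds as higher in CTK2+GAL than in GAL, where 11.7% of tested genes did. The ratio of the CTK2+GAL level to the CTK-2 level had a median of 0.954 and was 0.847 for Hpgd, 1.13 for Alpk1 and 0.892 for Kremen2.

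How many genes show this pattern rests on CTL replicate 3. Without it 74 genes met the rule, against 19 with it. Just outside the rule, 9 genes had a single CTL count, which in 7 of them came from CTL replicate 3, such as the chemokine gene Ccl2 with 83, 83 and 81 counts in CTK-2. A further 14 genes had 0 counts in CTL and a lowest CTK-2 count of 5 to 9, such as Klrk1 with 10, 16 and 8. Near the edge inside it lay Dlx3 with 22, 21 and 12, whereas the lowest CTK-2 count of a member was 46.

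In the prostaglandin pathway, symbols were at hand for few other genes, because a symbol is carried only by genes in the study's own list of cytokine-regulated genes, made from these libraries. The counts of list genes below are therefore not independent of that call. Of the 1781 tested genes with a symbol, 65.1% rose and 33% fell in CTK-2 versus CTL, and 58.9% rose and 26.7% fell in CTK2+GAL versus GAL. None of the 14 listed synthesis genes and 1 of the 5 other listed transport and inactivation genes had a symbol. That gene was Abcc4, an exporter of prostaglandins, with 293, 195 and 316 counts in CTL, 138, 317 and 269 in GAL, 359, 410 and 447 in CTK-2 and 418, 461 and 656 in CTK2+GAL. Its log2 fold change was 0.72 (SE 0.10, adjusted p = 7.1e-06, edgeR) in CTK-2 versus CTL and 0.63 (SE 0.10, adjusted p = 3.5e-05, edgeR) in CTK2+GAL versus GAL. Without GAL replicate 3 the latter was 0.55, under the fold threshold. Of 9 receptors, 1 had a symbol, the prostaglandin E2 receptor gene Ptger1, with 52, 35 and 65 counts in CTL and 19, 27 and 35 in CTK-2. It fell by 0.78 on the log2 scale (SE 0.22, adjusted p = 0.0087, edgeR) in CTK-2 versus CTL. In CTK2+GAL versus GAL its log2 fold change was -0.59 (SE 0.24, adjusted p = 0.057, edgeR), which did not pass, but did without CTK2+GAL replicate 2 (adjusted p = 0.048) and with a filter on low interquartile range (log2 fold change -0.61, adjusted p = 0.043). The differences between the cytokine comparisons did not pass the interaction test for either gene.

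Of the 24 other genes listed for the pathway from ALPK1 through TIFA and TRAF6 to NF-κB, 9 had a symbol, and all 9 rose in both cytokine comparisons, with 11.5% of all tested genes rising in CTK-2 versus CTL and 11.7% in CTK2+GAL versus GAL. Having a symbol already meant a call in these libraries, so nothing is read from that count. Their median log2 fold change was 2.21 in CTK-2 versus CTL and 2.18 in CTK2+GAL versus GAL, beside 0.78 and 0.75 over tested genes with a symbol and 0.00 and 0.01 over all tested genes. Tifa, which encodes the substrate of ALPK1, had 0, 0 and 6 counts in CTL and 0, 0 and 4 in GAL. It had 30, 42 and 42 in CTK-2 and 28, 44 and 61 in CTK2+GAL. Its log2 fold change in CTK2+GAL versus GAL was 4.49 (SE 0.61, adjusted p = 1.1e-05, edgeR), and all of its counts without cytokines lay in the replicate 3 libraries that stood apart. Without those libraries GAL held 0 counts, and Tifa was at least 19.01-fold higher in CTK2+GAL (adjusted p = 5.1e-09, edgeR), on a floor of 3 counts over the 2 GAL libraries left. The NF-κB subunit genes Relb and Nfkb2 rose by 3.35 (SE 0.16, adjusted p = 1.8e-11, edgeR) and 3.12 (SE 0.19, adjusted p = 3.3e-10, edgeR) on the log2 scale in the same comparison. Nfkbia, which encodes the inhibitor IκBα, rose by 2.43 (SE 0.10, adjusted p = 2e-12, edgeR). The adaptor gene Traf2, the subunit gene Nfkb1, the adaptor gene Traf3 and the peptidoglycan sensing genes Nod1 and Ripk2 rose by between 0.86 and 2.18. None of the 5 other alpha-kinase genes listed had a symbol.

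Among Wnt genes, the listed regulators outside the cell went in both directions. Of 23 besides Kremen2, 5 had a symbol, of which 2 rose, 2 fell and 1 did not pass in each cytokine comparison, with medians of 0.57 in CTK-2 versus CTL and 0.55 in CTK2+GAL versus GAL. Over all tested genes 11.5% rose and 5.79% fell in the former and 11.7% and 5.74% in the latter, and as above a symbol depended on the study's own call. The gene that did not pass was Lrp4, at these medians and under the fold threshold. It passed in CTK-2 versus CTL with total counts in place of TMM (0.60) and without CTL replicate 1 (0.61), CTL replicate 2 (0.60) or CTK-2 replicate 2 (0.64), and in CTK2+GAL versus GAL without GAL replicate 1 (0.62) or CTK2+GAL replicate 3 (0.59). Kremen1, the paralog of Kremen2 and likewise a Dickkopf receptor, had 36, 44 and 43 counts in CTL, 21, 61 and 53 in GAL, 28, 19 and 21 in CTK-2 and 24, 22 and 33 in CTK2+GAL. In CTK2+GAL versus GAL Kremen1 fell by 1.22 on the log2 scale (SE 0.22, adjusted p = 0.00021, edgeR), the opposite direction to Kremen2. In CTK-2 versus CTL it fell by 0.73 (SE 0.23, adjusted p = 0.016, edgeR), a call that was lost without CTL replicate 2 (adjusted p = 0.073), without CTK-2 replicate 2 (adjusted p = 0.085) and without CTK-2 replicate 3 (adjusted p = 0.065). The secreted Wnt binding proteins Sfrp1 and Sfrp2 rose by 1.40 (SE 0.11, adjusted p = 8.8e-09, edgeR) and 0.73 (SE 0.12, adjusted p = 0.00011, edgeR) in CTK2+GAL versus GAL. Frzb, of the same family, fell by 2.86 (SE 0.45, adjusted p = 5.5e-05, edgeR).

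The other Wnt lists had few genes with a symbol. None of 19 ligands had one, and of 18 receptors only Ror2 did, which fell by 0.75 (SE 0.18, adjusted p = 0.0029, edgeR) in CTK2+GAL versus GAL. Of 16 transducers and targets, 4 had a symbol. In CTK-2 versus CTL, Dvl1, Lef1 and Tcf7 rose and Nkd2 fell, with a median of 1.28. Over all tested genes 11.5% rose and 5.79% fell there, and 11.7% and 5.74% in CTK2+GAL versus GAL. Tested genes with a symbol had medians of 0.78 and 0.75, and as above a symbol depended on the study's own call. In CTK2+GAL versus GAL, Lef1 rose by 1.67 (SE 0.39, adjusted p = 0.0022, edgeR) and Tcf7 by 1.92 (SE 0.40, adjusted p = 0.00079, edgeR), whereas Dvl1 and Nkd2 lay under the fold threshold and the median was 1.12. Without GAL replicate 3 all 4 passed, Dvl1 also with total counts in place of TMM (0.61), and Nkd2 also without CTK2+GAL replicate 2 (adjusted p = 0.023).

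All 20 interferon-stimulated genes with a symbol, of 27 listed, rose in both cytokine comparisons in edgeR, beside 11.5% and 11.7% of all tested genes. Of tested genes with a symbol 65.1% and 58.9% rose. As above a symbol depended on the study's own call, so nothing is read from that count. DESeq2 called 15 of the 20 in each comparison and gave no adjusted p for the other 5. B2m lost its call in CTK-2 versus CTL without CTL replicate 1 (adjusted p = 0.063, edgeR) or 2 (0.061), and in CTK2+GAL versus GAL without GAL replicate 1 (0.065) or 2 (0.067). The median log2 fold change of the 20 was 6.04 in CTK-2 versus CTL and 6.25 in CTK2+GAL versus GAL, or 6.09 with the 1 gene at 0 in GAL set to its bound. Without replicate 3 of CTL and of GAL, 7 of the 20 were at 0 in CTL and 9 in GAL, and with these at their bounds the medians were 8.28 and 7.40. Each of the 20 had counts in CTL replicate 3, and all but Ifit3 had counts in GAL replicate 3. Cxcl10, for example, had 0, 0 and 4 counts in CTL and 838, 1083 and 999 in CTK-2. Hpgd and Kremen2 had 0 in GAL replicate 3, as did Cxcl11 and Apol3 of the 19 genes above. The 0 counts of these genes in CTL were set by the choice, and nothing is read from their 0 counts in GAL replicate 3.

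Within 200 kb of the 3 genes lay 38 other annotated genes, of which 18 had enough counts to be tested. Of these, 5 rose and 0 fell in CTK2+GAL versus GAL, where 11.7% of all tested genes rose and 5.74% fell. In CTK-2 versus CTL 5 rose and 0 fell, where 11.5% of all tested genes rose and 5.79% fell. Of the 5, Tnfrsf12a lost its call in CTK-2 versus CTL without CTL replicate 2 (adjusted p = 0.075, edgeR), CTK-2 replicate 1 (0.058) or CTK-2 replicate 2 (0.053). Without replicate 3 of CTL and of GAL, 5 rose and 1 fell in CTK2+GAL versus GAL. Of the 13273 genes tested then, 1633 rose and 844 fell. No neighbour of Hpgd was called among 2, of which 1 was tested. The gene 4218 bases from Hpgd had 33, 24 and 21 counts in CTL and 21, 24 and 20 in CTK-2.

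Of 6 neighbours of Alpk1, 4 were tested, and Tifa alone rose in CTK2+GAL versus GAL, where 11.7% of all tested genes rose. Tifa lies from 216234774 to 216267841 on the plus strand, so that the spans of the pair share 12384 bases on opposite strands. The counting used strand, per the file headers, which assigns reads over the shared bases by their strand, and how many reads there came from the wrong strand was not measured. No gene on its own strand overlapped any of the 3 members.

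Of 30 neighbours of Kremen2, 13 were tested and 4 rose in CTK2+GAL versus GAL, where 11.7% of all tested genes rose. ENSRNOG00000069091, which has no symbol, lies 813 bases downstream of Kremen2 on the same strand. It had 230, 258 and 469 counts in CTL, 110, 284 and 387 in GAL, 813, 963 and 844 in CTK-2 and 871, 939 and 1502 in CTK2+GAL. It rose by 1.64 on the log2 scale in CTK2+GAL versus GAL (SE 0.16, adjusted p = 1.6e-07, edgeR). On the other side, RGD1561157, 3169 bases away on the plus strand, had 0, 0 and 5 counts in CTL and 0, 0 and 3 in GAL. It had 30, 31 and 36 in CTK-2 and 35, 41 and 55 in CTK2+GAL, and rose by 4.86 in CTK2+GAL versus GAL (SE 0.60, adjusted p = 2.9e-06, edgeR). As for Tifa, its counts without cytokines lay in replicate 3 of CTL and GAL, and without these it was at least 19.2-fold higher in CTK2+GAL (adjusted p = 3.6e-09, edgeR). Flywch1, 6799 bases away, rose by 0.96 (SE 0.07, adjusted p = 6.4e-09, edgeR), and Tnfrsf12a, which encodes the receptor of the cytokine TWEAK and lies 54352 bases away, by 1.53 (SE 0.41, adjusted p = 0.0061, edgeR).

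**Figure D3:**
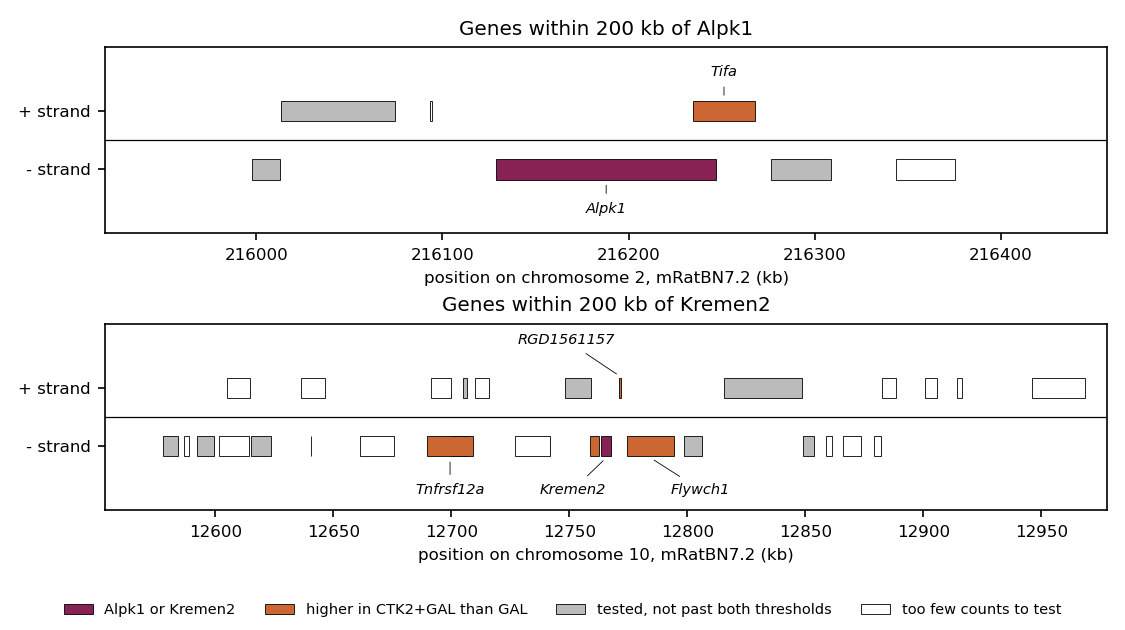
Annotated genes within 200 kb of Alpk1 and Kremen2, drawn to scale on mRatBN7.2 with the plus strand above the line and the minus strand below it. Orange genes were called higher in CTK2+GAL than in GAL, as were 11.7% of all tested genes, and those around Kremen2 are 4 of 13 tested.

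Across the 12 libraries, the tested genes with a symbol whose log2(CPM + 1) followed Hpgd most closely were Apol3, Adora1, Acot1, Kremen2 and Gbp3, with Pearson r from 0.9980 to 0.9988. For Kremen2 they were Hpgd, RT1-Bb, Adora1, Gbp3 and Apol3, with r from 0.9979 to 0.9983. For Alpk1 they were Helz2, Cdk19, RT1-Da, Socs1 and Angpt1, with r from 0.9924 to 0.9947. Alpk1 stood at rank 208 for Hpgd and 237 for Kremen2. These names and ranks depend on the added 1, since 6 of the 15 names remained with log2(CPM + 0.1). The libraries fall into 6 with and 6 without cytokines, the CTL and CTK-2 libraries that chose the genes are among them, and the r values describe mainly that separation.

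The 3 genes were chosen for being present in CTK-2 and absent in CTL, so their shared rise there is no result. The promoter sequences of the 3 genes and of Tifa are shown as a description only. They are the 250 bases before the transcript start from RefSeq on GRCr8, a later build than that of the counts, written 5′ to 3′ on the strand of the gene: chr16:39034832-39035081 minus, chr2:218924014-218924263 minus, chr10:13271987-13272236 minus and chr2:218932636-218932885 plus. Windows of 300 bases, with 50 bases after the start, were searched on both strands for GAS (TTCNNNGAA), κB (GGG, any 5 bases, CC), an interferon sequence (GAAA, any 2 bases, GAAA) and AP-1 (TGANTCA). These starts were not matched to the transcripts counted: on GRCr8 the starts of Alpk1 and Tifa point away from each other and lie 8873 bases apart, whereas their Ensembl spans on mRatBN7.2 overlap. Capitals mark the κB matches.
Hpgd: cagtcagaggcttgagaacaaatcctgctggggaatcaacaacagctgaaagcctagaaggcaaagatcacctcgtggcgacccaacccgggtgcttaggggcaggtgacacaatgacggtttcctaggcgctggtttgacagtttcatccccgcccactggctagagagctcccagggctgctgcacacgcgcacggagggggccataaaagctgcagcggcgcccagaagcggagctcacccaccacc
Alpk1: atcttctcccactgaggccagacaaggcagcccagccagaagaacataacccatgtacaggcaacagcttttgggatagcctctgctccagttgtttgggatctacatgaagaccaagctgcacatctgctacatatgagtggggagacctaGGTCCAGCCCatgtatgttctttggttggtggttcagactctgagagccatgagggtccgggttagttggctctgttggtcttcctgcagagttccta
Kremen2: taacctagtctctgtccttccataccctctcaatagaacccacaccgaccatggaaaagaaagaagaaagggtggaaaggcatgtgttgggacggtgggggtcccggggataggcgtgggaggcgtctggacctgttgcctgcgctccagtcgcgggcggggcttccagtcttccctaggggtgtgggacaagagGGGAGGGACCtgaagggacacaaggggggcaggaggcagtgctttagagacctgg
Tifa: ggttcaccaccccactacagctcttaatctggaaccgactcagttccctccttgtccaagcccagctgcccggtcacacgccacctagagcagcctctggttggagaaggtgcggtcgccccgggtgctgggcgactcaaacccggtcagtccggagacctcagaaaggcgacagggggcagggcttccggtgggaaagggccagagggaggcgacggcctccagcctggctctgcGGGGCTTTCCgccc
A κB match began 98 bases before the start in Alpk1, 55 in Kremen2 and 14 in Tifa, and the Hpgd window held none. These letters occur in 48.5% of the 27457 promoter windows, 1 for each gene. The other motifs, found in 8.68% (GAS), 3.77% (interferon sequence) and 7.33% (AP-1) of windows, did not occur in the 4 windows, and no match overlapped another. A match describes letters only.

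The labelled cell type was checked against marker genes with a symbol. A symbol already meant a call in these libraries, so nothing is read from how many of these markers changed. Over all tested genes 11.5% rose and 5.79% fell in CTK-2 versus CTL, and 11.7% and 5.74% in CTK2+GAL versus GAL. Of 8 listed oligodendrocyte markers, Mag, Mog and Cldn11 are reported. Mag, a myelin adhesion protein gene, had 1047, 995 and 941 counts in CTL, 456, 953 and 912 in GAL, 387, 486 and 398 in CTK-2 and 427, 447 and 742 in CTK2+GAL. Mag, Mog and Cldn11 fell in both cytokine comparisons, by 1.003 (SE 0.09, adjusted p = 3.1e-08, edgeR), 0.98 (SE 0.22, adjusted p = 0.0014, edgeR) and 0.91 (SE 0.07, adjusted p = 1.5e-08, edgeR) on the log2 scale in CTK2+GAL versus GAL. The precursor markers Pdgfra and Cspg4, 2 of 6 listed, summed to 569, 510 and 574 CPM in CTL, 590, 513 and 512 in GAL, 1302, 1171 and 1267 in CTK-2 and 1283, 1217 and 1139 in CTK2+GAL, and both rose.

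Markers of other cells moved with the cytokine groups as well, but those with a symbol are genes that the study had called in these libraries, so nothing is read from their counts. Of 13 microglial markers, 4 had a symbol (P2ry12, Csf1r, C1qc and Ptprc), and they summed to 2.24, 4.37 and 9.73 CPM in CTL and 3.10, 3.18 and 10.5 in GAL, led per kb by P2ry12. They summed to 24.3, 18.7 and 18.5 CPM in CTK-2 and 19.6, 20.6 and 20.8 in CTK2+GAL. Of the 4, all rose in CTK-2 versus CTL and 3 in CTK2+GAL versus GAL (4 without replicate 3 of CTL and of GAL), beside 11.5% and 11.7% of all tested genes, with C1qc and Ptprc lost there without GAL replicate 2 (adjusted p = 0.053 and 0.071). Csf1r lost its call in CTK-2 versus CTL without CTL replicate 1 (adjusted p = 0.095), CTL replicate 2 (0.084) or CTK-2 replicate 1 (0.12). Ptprc was at 0 in CTL replicate 2 and in GAL replicates 1 and 2. The endothelial gene Kdr (1 of 7 listed) rose from 1.03, 0.994 and 1.30 CPM in CTL to 3.97, 6.72 and 7.78 in CTK-2, and was at 1.55, 0.335 and 0.859 in GAL and 6.22, 5.33 and 7.64 in CTK2+GAL. The fibroblast gene Col1a2 (1 of 6) rose from 0.688, 1.59 and 1.30 CPM in CTL to 6.90, 6.36 and 7.97 in CTK-2, and was at 1.94, 1.34 and 1.72 in GAL and 4.86, 5.33 and 6.20 in CTK2+GAL. The astrocyte gene Aldoc (1 of 7) fell, from 259, 286 and 229 CPM in CTL to 154, 154 and 158 in CTK-2, and was at 267, 265 and 238 in GAL and 152, 159 and 168 in CTK2+GAL. None of the 5 neuronal markers had a symbol. Per the study's methods, a first shaking of the flasks, meant to detach microglia, came before the OPCs were collected. The part of other cells in the levels of Hpgd, Alpk1 and Kremen2 was not tested.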

How the data were processed

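RNA was sequenced from 12 OPC libraries in 4 groups of 3. The deposited values are unnormalized counts of read pairs per gene. The labels name FastQC, STAR, featureCounts and DESeq2, and per the file headers featureCounts 2.0.0 counted reversely stranded pairs on exons of Ensembl release 112, mRatBN7.2. A mean of 5 counts over the libraries was the minimum for testing. Counts were normalized by TMM and fitted by edgeR 4.0.16, under R 4.3.3 and limma 3.58.1, with a quasi-likelihood model of 4 group means, with DESeq2 1.42.0 as an alternative. P-values were adjusted by Benjamini-Hochberg, and the SE is the absolute log2 fold change over the root of F. The edgeR model was tested on simulated data. The sources used here do not say whether replicates were separate cultures, so p-values measure the spread between these libraries.

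Symbols came from a numeric match of the study's table of genes called in CTK-2 versus CTL to mean counts (relative tolerance 0.0002), which placed 1781 of 1786 entries. Of 893 entries held out of its fit, 893 found the same gene, and 99.9% of matches had the same chromosome in RefSeq where both gave one. As a control, fold changes of reversed sign still found a gene for 14 of those 893, and 50 placed entries had more than 1 candidate gene, of which the nearest in mean count was taken. The members and lists were chosen with earlier results of these data known. The genes named are the members, genes with their pattern, neighbours and pattern matches with a symbol, and list members by smallest adjusted p. Same-numbered CTL and GAL libraries deviated together (r = 0.488, 0.526 and 0.830 over 9642 genes). CTL replicate 1 and GAL replicate 2 did so too (0.525), as did CTL replicate 2 and GAL replicate 1 (0.357), so that replicate 3 is set apart from 1 and 2, and 1 and 2 are not shown to be paired. Of the genes that this rule gives, 2 are not reported here.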

Additional observations from a re-analysis of the deposited data

How the results depend on the processing

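The 3 members passed both thresholds in CTK2+GAL versus GAL under every alternative run: DESeq2, its size factors in edgeR, total counts, no filter on low counts, filterByExpr, a filter on low interquartile range, a replicate block, models of 2 groups, no fold threshold and each library left out. Their highest adjusted p over these was 2.4e-08 for Hpgd, 1.7e-06 for Alpk1 and 7e-07 for Kremen2. The fitted log2 fold change of Alpk1 lay between 4.16 and 6.55.

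Genes called in CTK2+GAL versus GAL numbered 2324, and 2032 to 2418 with 1 library left out. In CTK-2 versus CTL they numbered 2311, and 2121 to 2523. With no fold threshold the counts were 5290 and 5213, since more genes can then pass. In GAL versus CTL and in the interaction, where 0 genes were called, no filter on low counts gave 2 and 4, and leaving out CTL and GAL replicate 3 together, chosen after seeing the data, gave 4 and 6. The Wnt transducers called in CTK2+GAL versus GAL, 2 in number, became 4 without those 2 libraries and with no fold threshold, and 2 to 4 with 1 library left out. The genes with 0 counts in CTL and at least 10 in each CTK-2 library, 19 in number, were 33 at a minimum of 5, and 19 to 74 with 1 library left out. Where no construction shows it, the cause was not tested.

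With the replicate block, 2321 genes were called in CTK2+GAL versus GAL, 2320 in CTK-2 versus CTL and 0 in both galinex comparisons and in the interaction, and a replicate block on CTL and GAL alone, added after seeing the data, called 0 in GAL versus CTL. The block changed no call among the members. Same-numbered GAL and CTK2+GAL libraries correlated at 0.098, -0.023 and 0.074, so there they share only a number.

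Values of single genes were recomputed 1617 times over 77 gene and comparison pairs, which leave out the interferon-stimulated genes. Of these, 1589 kept direction and side of the thresholds, 13 fell short of them, 15 newly passed and 0 turned direction. Depth limits what a count of 0 shows: GAL replicate 1 held 2600797 counts, and a group at 0 counts may still hold a level under the floor of 3 counts. Of the 15 closest patterns, 6 were the same with log2(CPM + 0.1).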
